A study of Oryza sativa with 12 samples.

Results

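The class III HD-ZIP family of rice was examined in shoot apices in which an RNAi construct against *OsWOX4* had been induced. The family was found by gene symbol or synonym in the annotation of the array, and 4 of its 5 genes in the gene table had a row on the array: *HOX9* (gene ID 4348919), *HOX10* (4331345), *HOX32* (4333544) and *HOX33* (4352777). They are 4 of the 15140 genes paired with a row, and each is paired with exactly 1 row of the 54922 in the table. The other gene, *HOX29*, was not analysed here.

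The 12 arrays came from seedlings of the *pACT1-GVG>OsWOX4:RNAi* line, made in a japonica host strain. In this line the rice actin 1 promoter drives GVG, a transcription factor that enters the nucleus upon binding dexamethasone (DEX), a synthetic glucocorticoid, and then transcribes the RNAi construct. Seedlings at 5 days after germination (dag) were cultured in medium with 10 μM DEX for 3 h (DEX 3 h), without it for 3 h (mock 3 h), with 10 μM DEX for 12 h (DEX 12 h) or without it for 12 h (mock 12 h), with 3 biological replicates in each of the 4 groups. All groups carry the construct, and without wild-type apices given DEX among the arrays, what DEX or GVG did by itself and what *OsWOX4* silencing did cannot be told apart. The RNA was from shoot apices containing the SAM and the young leaf primordia, and because this is bulk tissue, fewer cells of a type and less RNA per cell cannot be told apart in any value below.

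Class III HD-ZIP proteins are transcription factors with a homeodomain, an adjoining leucine zipper and a START domain, and their mRNAs are cleaved under the guidance of microRNAs of the miR166 family. In *Arabidopsis*, members of the class such as *PHABULOSA* and *REVOLUTA* promote the adaxial fate of leaf primordia, SAM formation and the patterning of xylem, and they are opposed by the abaxial KANADI proteins. In rice, *HOX10* is also known as *LATERAL FLORET1* from a mutant with extra florets in the spikelet, and overexpression of *HOX32* gives rolled leaves.

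Across the whole table, 14.9% of the rows were higher and 28.0% lower in the DEX 12 h arrays than in the mock 12 h arrays at an adjusted p under 0.05, whereas at 3 h these shares were 0.240% and 0.00364%. With 1 array left out, the 3 h shares ranged from 0.111% (without mock 3 h replicate 1) to 0.218% higher and from 0.00182% to 0.02% (without mock 3 h replicate 2) lower. After quantile normalization of the arrays, 20.2% were higher and 23.4% lower at 12 h. A row was called at that threshold in limma, with p-values adjusted over all rows, and "rose" and "fell" are used only of called genes. The median log2 signal of an array was between 5.64 and 5.76. The upper quartile was 7.15 to 7.24 in the DEX 12 h arrays and 7.38 to 7.45 in the others. The *OsWOX4* row was higher in the arrays labelled DEX 12 h than in the mock 12 h arrays, by 1.54 on the log2 scale (SE 0.13, adjusted p = 3.27e-06). Its log2 signal was 8.51 to 8.76 in the arrays labelled DEX 12 h and 6.97 to 7.22 in the mock 12 h arrays, and at 3 h it was 7.60 to 8.03 in the arrays labelled DEX and 6.87 to 7.15 in the mock arrays. This row may read RNA made from the RNAi construct together with the endogenous mRNA, so it checks nothing about the labels.

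All 4 class III HD-ZIP genes fell after 12 h of DEX, and none was called after 3 h. *HOX9* fell the most, to 35.5% of the mock 12 h level, followed by *HOX33* (44.8%), *HOX32* (51.7%) and *HOX10* (55.8%). In each of the 4 genes, all 3 DEX 12 h arrays lay below all 3 mock 12 h arrays, an arrangement found in 32.2% of all rows. Values are log2 signals as deposited unless a linear signal is named, and levels of different genes were not compared because each is read by other probes.

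*HOX9*, also annotated as *OsHB2*, had log2 signals of 7.82, 7.36 and 7.64 in the DEX 12 h arrays, against 9.09, 9.17 and 9.03 in the mock 12 h arrays. The lowest mock array lay more than a log2 unit above the highest DEX array. On the linear scale the signal averaged 196.1 ± 30.7 in DEX 12 h apices and 548.8 ± 26.3 in mock 12 h apices (SD, n = 3 each). The log2 difference was -1.50 (SE 0.12, 95% interval -1.76 to -1.24, adjusted p = 1.48e-06), and a lower value was held by 3.22% of all rows.

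*HOX33* had log2 signals of 8.58, 8.07 and 8.16 in the DEX 12 h arrays, against 9.57, 9.44 and 9.28 in the mock 12 h arrays. Both groups were spread more widely than those of *HOX10*, yet they stayed apart. The linear signal averaged 312.9 ± 61.2 in DEX 12 h apices and 692.5 ± 70.8 in mock 12 h apices (SD, n = 3 each). The log2 difference was -1.16 (SE 0.13, 95% interval -1.45 to -0.87, adjusted p = 2.72e-05).

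*HOX32* had log2 signals of 8.96, 8.46 and 8.62 in the DEX 12 h arrays, against 9.81, 9.56 and 9.52 in the mock 12 h arrays. Replicate 1 was the highest array in both groups, and its DEX value was still below every mock value. The linear signal averaged 414.6 ± 74.0 in DEX 12 h apices and 796.2 ± 89.5 in mock 12 h apices (SD, n = 3 each). The log2 difference was -0.95 (SE 0.13, 95% interval -1.23 to -0.67, adjusted p = 9.42e-05).

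*HOX10*, also annotated as *OsHB1*, had log2 signals of 8.83, 8.69 and 8.68 in the DEX 12 h arrays, against 9.62, 9.57 and 9.55 in the mock 12 h arrays. Its replicates were the closest to each other among the 4 genes in both groups. The linear signal averaged 426.5 ± 25.4 in DEX 12 h apices and 763.3 ± 19.9 in mock 12 h apices (SD, n = 3 each). The log2 difference was the smallest of the 4 in size, -0.84 (SE 0.08, 95% interval -1.02 to -0.66), although with the smaller spread its adjusted p was 6.63e-06. A decrease of at least 2-fold with an adjusted p under 0.05 was found for *HOX9* and *HOX33*, and for 9.98% of all rows.

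**Figure D1:**
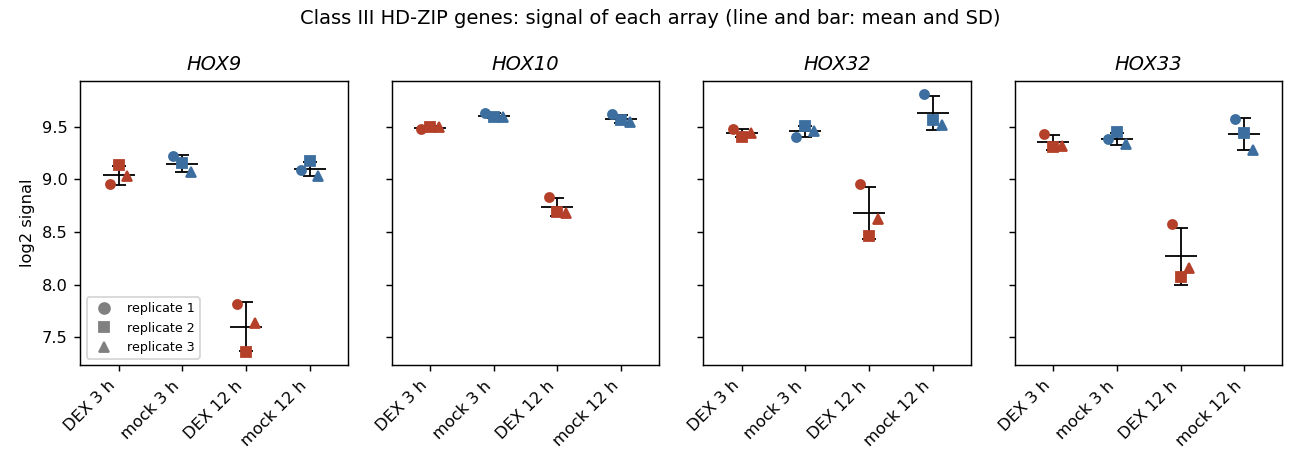
Log2 signal of each class III HD-ZIP gene (vertical axis) in each array of the DEX 3 h, mock 3 h, DEX 12 h and mock 12 h groups (symbols are replicates, red DEX and blue mock, and the lines with bars are the mean and SD of 3 arrays). In every panel the 3 DEX 12 h arrays lie below all other arrays of that gene, as in *HOX9*, where they reach no higher than 7.82.

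The members' brightness bears on how these falls are read. Their mean log2 signals over the 12 arrays were between 8.72 and 9.35, and among the 2133 rows within that range 52.3% were called lower at 12 h, with a median log2 difference of -0.36. Among these similarly bright rows, a value lower than that of *HOX9* was held by 5.11%, than that of *HOX33* by 10.9%, than that of *HOX32* by 18.1% and than that of *HOX10* by 22.7%. A fall of *HOX10* or *HOX32* was thus of a size that many rows of like signal had in these apices, whereas *HOX9* was near the lower end. This range of brightness was chosen after the members' values had been seen.

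At 3 h the DEX and mock arrays were much closer. *HOX9* had log2 signals of 8.95, 9.13 and 9.03 in the DEX 3 h arrays, against 9.23, 9.16 and 9.07 in the mock 3 h arrays. *HOX32* had 9.48, 9.40 and 9.44 in the DEX 3 h arrays, against 9.40, 9.51 and 9.46 in the mock 3 h arrays. *HOX33* had 9.43, 9.30 and 9.32 in the DEX 3 h arrays, against 9.38, 9.45 and 9.33 in the mock 3 h arrays. In these 3 genes the groups overlapped.

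*HOX10* differed from them in that its DEX 3 h arrays, at 9.48, 9.50 and 9.50, all lay below its mock 3 h arrays, at 9.63, 9.59 and 9.60. This arrangement was found in 5.49% of all rows at 3 h, and the difference of -0.11 (95% interval -0.29 to 0.06) did not pass the test (adjusted p = 0.987, limma). For the other genes the intervals of the 3 h difference were -0.37 to 0.15 for *HOX9*, -0.30 to 0.26 for *HOX32* and -0.33 to 0.26 for *HOX33*. A change within these limits at 3 h thus remains possible, and the intervals do not reach the falls measured at 12 h. The intervals are not adjusted for the number of rows, so they do not give the smallest change that could have been called.

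The change of the DEX effect between the times was tested directly, as the difference at 12 h minus the difference at 3 h. It was -1.38 for *HOX9* (SE 0.17, adjusted p = 9.96e-05), -1.12 for *HOX33* (SE 0.19, adjusted p = 0.00093), -0.93 for *HOX32* (SE 0.18, adjusted p = 0.00241) and -0.73 for *HOX10* (SE 0.11, adjusted p = 0.000605) in limma. In this test 19.5% of all rows had a negative call. The DEX effect on every member was therefore more negative at 12 h than at 3 h.

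Time in culture alone gave no called change of the members. Between mock 12 h and mock 3 h arrays the log2 differences were -0.05 for *HOX9*, -0.03 for *HOX10*, 0.17 for *HOX32* and 0.04 for *HOX33*, with adjusted p-values from 0.667 to 0.937. In limma, 0% of all rows were called in this comparison, and 5614 had an unadjusted p under 0.05. Without mock 3 h replicate 2, 0.0109% were called lower and 0.00546% higher. Between DEX 12 h and DEX 3 h arrays all 4 fell, by 1.44 for *HOX9*, 1.08 for *HOX33*, 0.76 for *HOX10* and 0.76 for *HOX32* on the log2 scale, as did 30.6% of all rows. In each gene the DEX 12 h mean was thus the lowest of the 4. The other means were close together, the widest gap being that of *HOX32*, at 9.44 in DEX 3 h and 9.63 in mock 12 h arrays, which were not tested against each other.

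**Figure D2:**
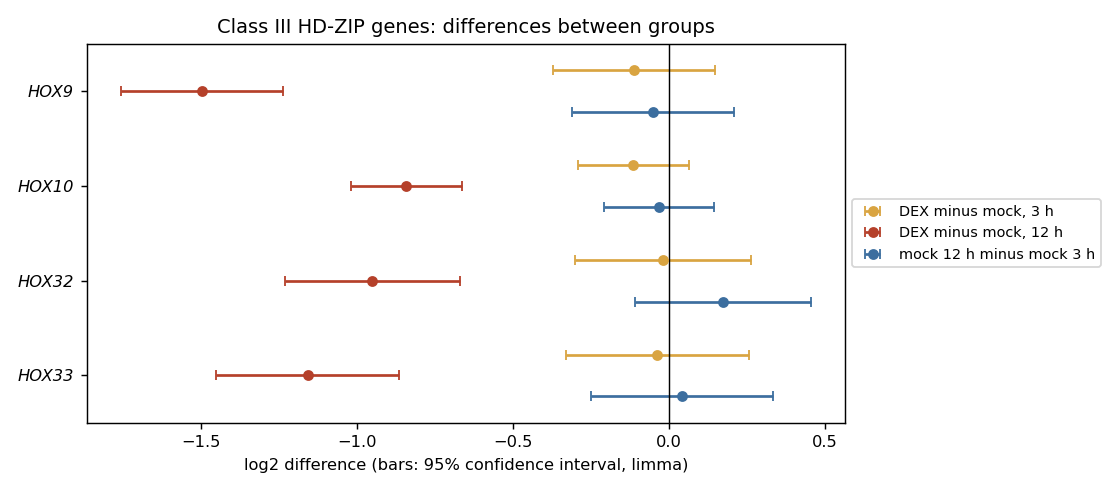
Log2 differences of each class III HD-ZIP gene (horizontal axis) with 95% confidence intervals from limma, for DEX minus mock at 3 h, DEX minus mock at 12 h and mock 12 h minus mock 3 h. The 12 h DEX intervals lie wholly below 0, from -1.76 to -1.24 in *HOX9* and -1.02 to -0.66 in *HOX10*, while every other interval includes 0.

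Whether the members differed from each other in their response was examined by taking, in each array, the difference between the log2 signals of a pair of genes and comparing DEX with mock arrays by a two-sided exact permutation test. With 3 against 3 arrays the smallest p this test can give is 0.1, so it can call no pair, and only the sizes are given, as descriptions. Over the 6 pairs at 12 h, the DEX effect on *HOX9* was more negative than that on *HOX10* by 0.66 (SE 0.11), than that on *HOX32* by 0.55 (SE 0.11) and than that on *HOX33* by 0.34 (SE 0.11). In these pairs the 2 groups of arrays were fully apart. The same held for *HOX32* against *HOX33*, with a difference of 0.21 (SE 0.05). How many other pairs of genes were apart in this way was not counted. The arrays overlapped for *HOX10* against *HOX32* (0.11) and for *HOX10* against *HOX33* (0.32). At 3 h no pair differed in its DEX effect by more than 0.10.

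The replicates of the DEX 12 h group showed a shared order in part. Replicate 1 was the highest of the 3 DEX 12 h arrays in all 4 members, above the group mean by 0.21 for *HOX9*, 0.10 for *HOX10*, 0.28 for *HOX32* and 0.31 for *HOX33*. Among all rows called lower at 12 h, replicate 1 was the highest DEX 12 h array in 32.2%, and replicate 3 in 50.3%. Without DEX 12 h replicate 1 the log2 differences at 12 h were -1.60 for *HOX9*, -1.31 for *HOX33*, -1.09 for *HOX32* and -0.89 for *HOX10*, so this array made each fall smaller.

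How alike the 4 profiles were over the 12 arrays was measured as the root mean square distance between log2 signals centred on each gene's own mean. The closest members were *HOX10* and *HOX32* (0.12), followed by *HOX32* and *HOX33* (0.14), *HOX10* and *HOX33* (0.17) and *HOX9* and *HOX33* (0.19). *HOX9* was farther from *HOX10* (0.30) and from *HOX32* (0.32). The arrays, and with them any property shared by a group of arrays, are common to all these profiles.

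Each member was then set against 1713 other named genes by the same distance. Closest to *HOX9* were *PRMT5*, a protein arginine methyltransferase gene (0.07), *GLN2*, which encodes the plastid glutamine synthetase (0.07), and *AtATP-PRT* (0.07), against a median of 0.68 over the 1713 genes. Closest to *HOX10* were *DAPDC* (0.06), *ASPR2*, a gene of the TOPLESS-type corepressors (0.06), and the zinc finger gene *OsC3H4* (0.08), against a median of 0.42. Closest to *HOX32* were *FIB*, which encodes a tryptophan aminotransferase of auxin synthesis (0.11), the transporter gene *YSL14* (0.11) and *G1L5*, a gene of the ALOG family (0.12), against a median of 0.44. Closest to *HOX33* were the aquaporin gene *PIP2-4* (0.10), the transporter gene *YSL7* (0.10) and *IPP* (0.10), against a median of 0.54. For every member, the 3 closest of these many genes were nearer to it than any other class III HD-ZIP gene was.

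The other classes of HD-ZIP genes, grouped by the structure of their proteins, moved in both directions at 12 h. Of their genes found in the gene table, a row was paired with 8 of 12 in class I, 5 of 9 in class II and 5 of 10 in class IV. The rest were not read. Class I proteins carry the homeodomain and leucine zipper without a START domain and many are tied to water stress and growth responses. Of 8 class I genes on the array, 5 rose, 1 fell and 2 were not called at 12 h, with a median log2 difference of 0.55. The largest rises were in *HOX13* (3.83, SE 0.13, adjusted p = 4.36e-09) and *HOX4* (1.44, SE 0.14, adjusted p = 7.9e-06), and *HOX5* fell (-1.20, SE 0.10, adjusted p = 2.59e-06). *HOX13* and *HOX4* were also the only class I genes called at 3 h, both higher. At 12 h, 2 class I genes were called lower without mock 12 h replicate 3.

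Class II genes, several of which respond to shade and auxin in *Arabidopsis*, split at 12 h into 1 rise, 2 falls and 2 without a call of 5 genes, with a median of -0.42. *HOX3* rose (1.57, SE 0.15, adjusted p = 6.8e-06), and was already called higher at 3 h. *HOX2* (-0.88, adjusted p = 0.00369) and *HOX7* (-0.46, adjusted p = 0.0156) fell. Class IV genes share the START domain with class III and act mainly in the epidermis. Of 5 genes, 2 rose, 1 fell and 2 were not called, with a median of -0.04. *ROC4* rose the most (3.18, SE 0.13, adjusted p = 1.69e-08) and was also called higher at 3 h, and *ROC6* rose slightly (0.31, adjusted p = 0.0258). *ROC7* fell slightly (-0.26, adjusted p = 0.0214), but this call was lost with median centring, with quantile normalization, in the fit of the 6 arrays of 12 h and without mock 12 h replicate 2, mock 12 h replicate 3 or DEX 12 h replicate 2. Only 1 class IV gene was called higher without DEX 12 h replicate 1 or any 1 of the mock 12 h arrays, and only 1 class II gene was called lower without mock 12 h replicate 2 or DEX 12 h replicate 2. Over all rows the median at 12 h was -0.06, and over the 15140 genes 32.4% fell and 22.8% rose.

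**Figure D3:**
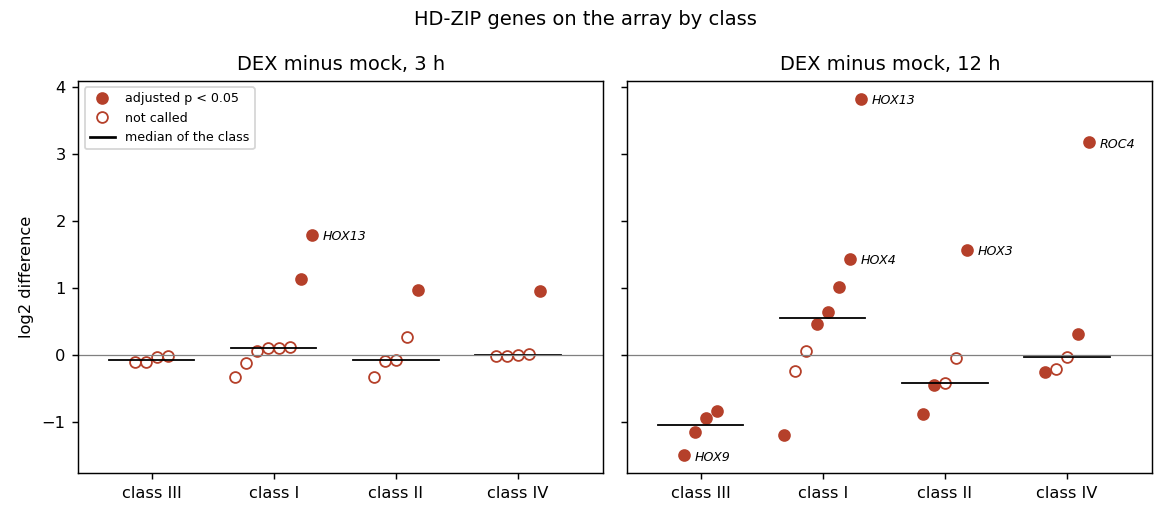
Log2 difference of DEX minus mock (vertical axis) at 3 h on the left and at 12 h on the right for the HD-ZIP genes on the array by class, with filled points for an adjusted p under 0.05, open points for genes not called and a line at the class median. At 12 h the 4 class III genes are filled and lie between -1.50 and -0.84, while the other classes hold points on both sides of 0.

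The regulators of class III HD-ZIP mRNAs could be followed only through the small RNA machinery, since no miR166 gene was matched to a row. Of 7 such genes on the array, 3 fell and 4 were not called at 12 h, with a median of -0.12. Over all 15140 genes 32.4% fell and 22.8% rose. The ARGONAUTE gene *AGO1D* fell (-1.09, SE 0.12, adjusted p = 2.29e-05), as did *AGO7* (-0.98, SE 0.11, adjusted p = 2.7e-05), whose *Arabidopsis* counterpart acts in the trans-acting siRNA pathway. *AGO1A* (0.11, adjusted p = 0.469), *AGO1B* (0.03, adjusted p = 0.82) and *AGO1C* (-0.12, adjusted p = 0.268) were not called in limma. *PNH1*, the rice relative of *Arabidopsis AGO10*, which sequesters miR166, had log2 signals averaging 8.41 in DEX 12 h arrays and 8.35 in mock 12 h arrays, a difference of 0.06 (adjusted p = 0.689).

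Genes listed as partners of class III HD-ZIP genes in setting the adaxial and abaxial sides of the leaf moved in both directions. Whether each has that role in rice leaves was not tested. Of 14 on the array, 7 fell, 3 rose and 4 were not called at 12 h, with a median of -0.32, while 32.4% of all genes fell and 22.8% rose. The YABBY gene *YAB1* fell (-2.69, SE 0.13, adjusted p = 5.13e-08), and so did *DL* (-1.44, SE 0.13, adjusted p = 4.81e-06), a YABBY gene needed for the midrib of rice leaves. The YABBY genes *YAB4* (2.08, SE 0.09, adjusted p = 2.09e-08) and *YAB5* (1.42, SE 0.09, adjusted p = 1.95e-07) rose, and *YAB5* was the one gene of this list called at 3 h. In the list for procambium and xylem, where class III HD-ZIP genes also act in *Arabidopsis*, 3 of 8 genes fell, 1 rose and 4 were not called. The median was -0.25, and the share that fell was near that of all genes. *ARF5*, an auxin response factor gene, fell (-3.61, SE 0.24, adjusted p = 3.77e-07), and so did *LOGL3* (-2.28, SE 0.14, adjusted p = 2.19e-07) and *LOGL10* (-1.76, SE 0.12, adjusted p = 3.43e-07), which encode cytokinin-activating enzymes. The rise was that of the *OsWOX4* row, which may read RNA of the RNAi construct, so it does not show a rise of the endogenous mRNA. The secondary wall cellulose synthase genes *CESA4* (-0.07, adjusted p = 0.805) and *CESA9* (0.24, adjusted p = 0.329) were not called. The gene called *ARF5* here was found by that name. The authors treat *OsARF11* as the rice ortholog of *Arabidopsis MONOPTEROS*, and by in situ hybridization saw similar patterns of it with and without DEX. No gene was matched to the name *ARF11* here. The authors also probed *PHB3*, a rice class III HD-ZIP gene, by in situ hybridization. After 12 h of DEX they saw its signal greatly reduced in older leaf primordia. The name *PHB3* was not tied to any of the members here.

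Markers of the tissues in the apex were read in the same comparison, in which 32.4% of all genes fell and 22.8% rose. Of 5 genes listed as SAM markers on the array, 4 fell and 1 rose. Their summed linear signal was 321.1 to 335.1 in DEX 12 h arrays and 405.8 to 527.9 in mock 12 h arrays. The largest falls of this list were those of the KNOX genes *OSH15* (-0.93, adjusted p = 0.000105) and *OSH71* (-0.74, adjusted p = 0.00143). The KNOX gene *HOS66* rose (0.97, adjusted p = 0.00026), and whether it marks the SAM was not tested. Of 8 leaf primordium markers 6 fell and 2 rose, *YAB4* and *YAB5*, and the summed signal was 2994 to 3264 in DEX 12 h arrays and 2463 to 2668 in mock 12 h arrays. A sum of linear signals weighs bright genes most, and *YAB5* had a mean log2 signal of 10.8 in DEX 12 h and 9.4 in mock 12 h arrays. The higher sum therefore does not describe most markers of this list. The chlorophyll-binding protein gene *CAB2R* had the largest fall of that list (-4.06, adjusted p = 3.52e-08). Of 3 genes listed as root markers, of which *SHR1* and *SCR* are also known to act in shoots, *QHB*, a *WOX* gene of the root quiescent centre, rose (3.91, SE 0.20, adjusted p = 6.66e-08), while *SHR1* (-1.53, adjusted p = 1.21e-06) and *SCR* (-1.11, adjusted p = 0.000377) fell. Their summed signal was 244.2 to 351.6 in DEX 12 h arrays and 136.2 to 154.7 in mock 12 h arrays, higher although only *QHB* rose. None of 4 flower markers was called (1 was called lower with 1 row per gene and without mock 3 h replicate 2, mock 12 h replicate 3 or DEX 12 h replicate 3), with a summed signal of 65.57 to 71.50 in DEX 12 h arrays and 74.24 to 78.23 in mock 12 h arrays. The part of these shifts in the falls of the class III HD-ZIP genes was not tested.

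The genes lying beside each member in the gene order of the reference table were also read, 10 on each side, a view chosen after the annotation had been seen. *LOGL3* is the gene directly next to *HOX10*, and *LOGL10* lies 5 genes away from *HOX9*. *LOGL3* averaged 5.56 ± 0.28 in DEX 12 h arrays and 7.83 ± 0.11 in mock 12 h arrays, and *LOGL10* averaged 4.73 ± 0.11 in DEX 12 h arrays and 6.49 ± 0.09 in mock 12 h arrays (log2 signal, SD, n = 3 each). Their falls were larger than that of the neighbouring member, -2.28 beside -0.84 and -1.76 beside -1.50. *LOL3*, a gene of the LSD1-like zinc finger family, lies 8 genes from *HOX32*, and *LOL2* lies 10 genes from *HOX33*. Both rose at 12 h, by 0.92 and 0.87, while *HOX32* and *HOX33* fell. *LOL2* and *LOL3* were picked once their values were known. Some unnamed neighbours moved more than these, in either direction, such as 1.90 at 2 places from *HOX9* and -1.46 at 3 places from *HOX10*. Over all 44 neighbours on the array, 15 fell (34.1%), 6 rose (13.6%) and 23 were not called, with a median of -0.12, so the share that fell was near the 32.4% of all genes. By member, 1 of 7 neighbours fell at *HOX9*, 6 of 17 at *HOX10*, 4 of 10 at *HOX32* and 4 of 10 at *HOX33*. Whether position plays a part in the falls of the members was not tested.

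**Figure D4:**
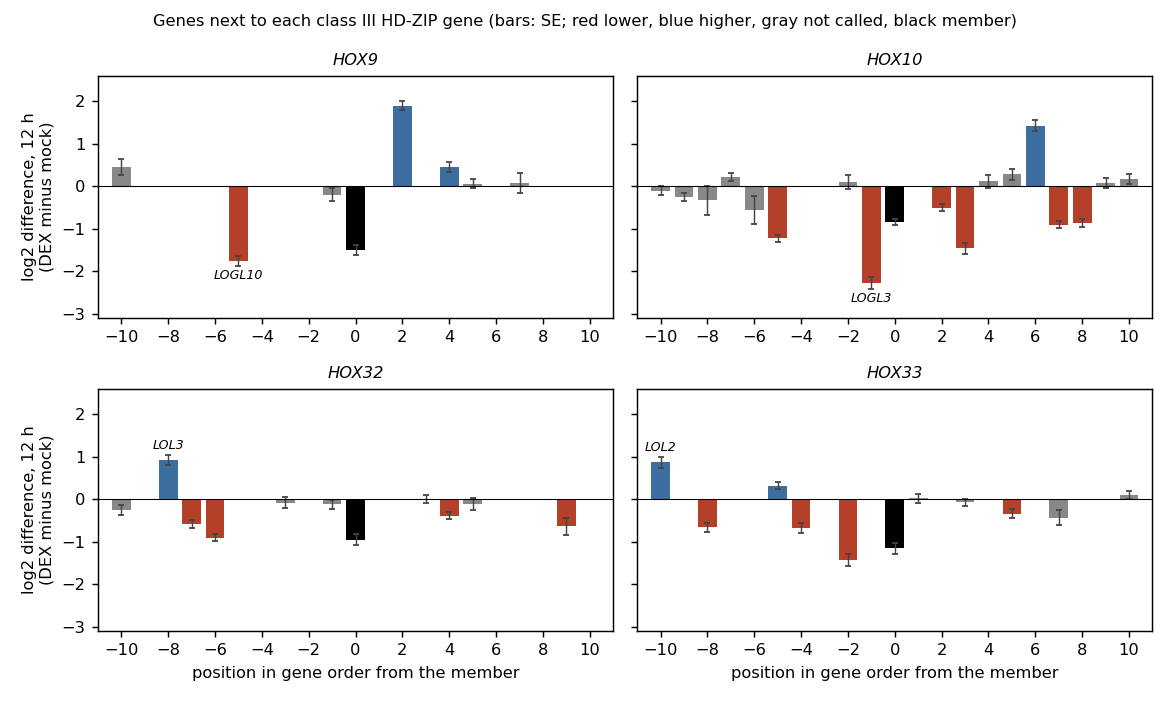
Log2 difference of DEX minus mock at 12 h (vertical axis, bars for SE) of the genes on the array within 10 places of each class III HD-ZIP gene in gene order (horizontal axis, the member at 0 in black, red for called lower, blue for called higher, gray for not called). *LOGL3* at 1 place from *HOX10* (-2.28) and *LOGL10* at 5 places from *HOX9* (-1.76) fell, while *LOL3* (0.92) and *LOL2* (0.87) rose.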

How the data were processed

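RNA was measured on Rice (US) Gene 1.0 ST arrays of 1 color. Normalization by the authors was done in Affymetrix Expression Console 1.3 with standard settings, and the normalized data were analysed in Subio Platform. Judging by their range, the deposited values are log2 signals, and no scaling was added. Arrays have no read depth, and their number limits the precision. Gene names came from the platform annotation and a reference gene table of assembly ASM3414082v1, used only for names and gene order. It matched all 15140 genes, and 38653 rows were paired with none.

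The 4 group means were fitted over all rows and 12 arrays in limma 3.58.1 (R 4.3.3), with Benjamini-Hochberg adjustment over 54922 rows. The fit was tested on simulated data. The members, lists and tests were chosen with earlier results of these data known. Named genes were all members, at most 2 called genes per direction and list at 12 h, and the 3 closest profiles of each member. Further genes (*PNH1*, *AGO1A*, *AGO1B*, *AGO1C*, *CESA4*, *CESA9*, *LOL2*, *LOL3*, *LOGL10* beside *ARF5* and *LOGL3*) were added once their values were known. The alternatives were median centring, quantile normalization, a filter on dim rows, a variance trend, 1 row per gene, the replicate number as a block, only the 6 arrays of a time and leaving out each array. Figures were drawn with matplotlib 3.10.9.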

Additional observations from a re-analysis of the deposited data

Results flagged for a closer look

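In all 4 class III HD-ZIP genes the DEX effect differed between the times, by a test of that difference itself. The DEX effect at 12 h minus that at 3 h was -1.385 for *HOX9*, -0.7271 for *HOX10*, -0.932 for *HOX32* and -1.122 for *HOX33* on the log2 scale, with adjusted p-values from 9.96e-05 to 0.00241 in limma. All 3 DEX 12 h arrays lay below all 3 mock 12 h arrays in each gene, whereas at 3 h this was so only for *HOX10*. Over all rows, 32.2% had this arrangement at 12 h and 5.49% at 3 h. In the test of the difference between the times, 19.5% of all rows had a negative call.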

How the results depend on the processing

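The falls of all 4 genes at 12 h kept their direction and an adjusted p under 0.05 in each of the 19 alternatives, from -1.60 to -1.32 for *HOX9*, -1.31 to -1.02 for *HOX33*, -1.09 to -0.82 for *HOX32* and -0.89 to -0.72 for *HOX10*. The lowest value came without DEX 12 h replicate 1 and the highest with quantile normalization. The largest adjusted p-values were 0.000166, 0.00107, 0.00242 and 0.000595, in the fit of 6 arrays. No 3 h or mock time difference of a member was called in any of the alternatives run. With 1 row for each member, no other row could be tried. Deviations from the group means, over all rows, were weakly correlated between DEX and mock replicates sharing a number (r from -0.05 to 0.17 at 3 h and -0.04 to -0.02 at 12 h). The 0.17 was that of replicate 2, against -0.14 to -0.02 with the other numbers. The labels do not say whether the numbers pair the samples, and these correlations cannot decide it. With the replicate number as a block the 12 h differences were -1.50, -1.16, -0.95 and -0.84 in the same order, all called, and 27.7% of all rows were lower. Medians over all rows at 12 h were -0.06 as deposited, 0.02 after median centring and 0.03 after quantile normalization, and 24.9% and 23.4% of rows were then lower and 19.0% and 20.2% higher. With only rows above the median signal 47.6% were lower at 12 h and 38.5% were negative in the difference between times. With 1 row per gene 24.5% were higher. At 3 h the share of higher rows ranged from 0.0109% (6 arrays) to 0.878% (1 row per gene) over all alternatives. Background signals were not used here, so the limit set by dim signal was not measured. The members' mean log2 signals were 8.72 to 9.35, above the array medians of 5.64 to 5.76.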
